A study of Mus musculus with 9 samples.

Results

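Synaptic vesicle and release genes encode the proteins that fill, dock, fuse and recover the vesicles by which neurons release transmitter. A list of 45 of them, made up of synaptotagmins, SNARE proteins and their partners, active zone proteins, synapsins and other vesicle proteins, was matched by gene symbol to the rows of the expression table. A row was found for 44, all of which were among the 14029 genes tested, and Vamp1 was not analysed here. RNA was sequenced from midbrain tissue of 9 C57BL/6 mouse fetuses at stage E13.5, with 3 fetuses in each of 3 genotypes. The floxed control was Gpr161f/f and carried no Cre. The Cre control was Gpr161f/+;Wnt1-Cre, with 1 floxed allele and the driver, and cKO was homozygous for the floxed allele and also carried Wnt1-Cre. Every fetus therefore carried at least 1 floxed allele. The titles of the cKO samples spell the gene Gpt161, and the columns headed KO were matched to them by genotype and replicate number. Wnt1-Cre acts in the dorsal midbrain and the neural crest, so the dissected tissue could also hold cells outside its lineage. The study asked how the loss of Gpr161, a ciliary receptor that restrains Shh signaling, alters gene expression in the midbrain.

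Neurotransmitter is released when a vesicle SNARE, VAMP, zips together with the plasma membrane SNAREs syntaxin and SNAP-25, and synaptotagmin triggers the final fusion when calcium enters. Scaffold and priming proteins of the active zone hold vesicles beside calcium channels, complexins clamp and promote fusion, and dynamin with its partners retrieves the membrane afterwards. Neurons begin to make this machinery soon after they leave the cell cycle, before they form synapses, while dividing progenitors use more broadly expressed relatives for general membrane traffic.

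The values were deposited as log2 expression, normalized between libraries, and each is given below on that scale unless a percentage on the linear scale is stated. All 20 pan-neuronal markers and all 14 neural progenitor markers had values above 0, as did Otx2, En1 and En2, transcription factor genes that mark the midbrain, which were chosen after their values were seen and stood at 11.28 to 11.58, 10.50 to 10.97 and 12.09 to 12.63 over the 9 libraries. Gpr161 itself was not lower in the libraries labelled cKO, with values of 11.80, 11.74 and 11.78 in the floxed control, 11.77, 11.91 and 11.96 in the Cre control and 11.74, 11.95 and 11.94 in cKO (adjusted p = 0.223 against the floxed control), so the deletion could not be read from its gene-level value and the genotype is taken from the labels throughout. Gli1, a target of Shh signaling, was higher in cKO than in either control, with log2 fold changes of 1.08 (adjusted p = 3.17e-05) and 1.05 (adjusted p = 7.49e-05). Wnt1 was higher in both groups that carried the driver, with 1.47 (adjusted p = 1.72e-05) in cKO and 1.75 (adjusted p = 3.47e-06) in the Cre control, both against the floxed control. The library Cre control 1 stood apart from the other Cre controls: it held the lowest of the 3 Cre control values for 41 of the 44 genes. In cKO, library 1 held the lowest value for 38 of the 44. Counts of genes that moved by over 1.5 times without one of these libraries are given with and without it.

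On the deposited scale, levels of the synaptic vesicle and release genes were reduced in cKO relative to the floxed control, while relative to the mean shift of general neuronal genes 26 of the 44 were lower and the rest higher. Of the 44 genes, 38 fell past an adjusted p of 0.05 (limma with Benjamini-Hochberg adjustment over all genes tested) and 0 rose, where 18.8% of all tested genes fell and 19.5% rose. The median log2 fold change of the 44 was -0.49, or 71.1% of the floxed control on the linear scale, while that of all genes tested was 0.011. Each of the 44 had a value below 0, from -0.77 for Syt4 to -0.092 for Syt11, and in 43 of them every cKO library lay below every floxed control library, as in 27.3% of all tested genes. The exception was Cplx2. The decrease was small for most genes: 7 of the 44 passed the limit for a differentially expressed gene (DEG), an adjusted p under 0.05 with a change of more than 1.5-fold, beside 1.58% of all tested genes that were DEGs with lower levels. These were Syt4, Cplx1, Sv2c, Syt5, Sv2a, Snap91 and Unc13a. Their number rested on single libraries, since it was 2 without cKO 1, 16 without cKO 3 and 11 without floxed control 2. The share of all tested genes was not at hand for these fits. In whole tissue, fewer neurons and less of these transcripts per neuron cannot be told apart.

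**Figure D1:**
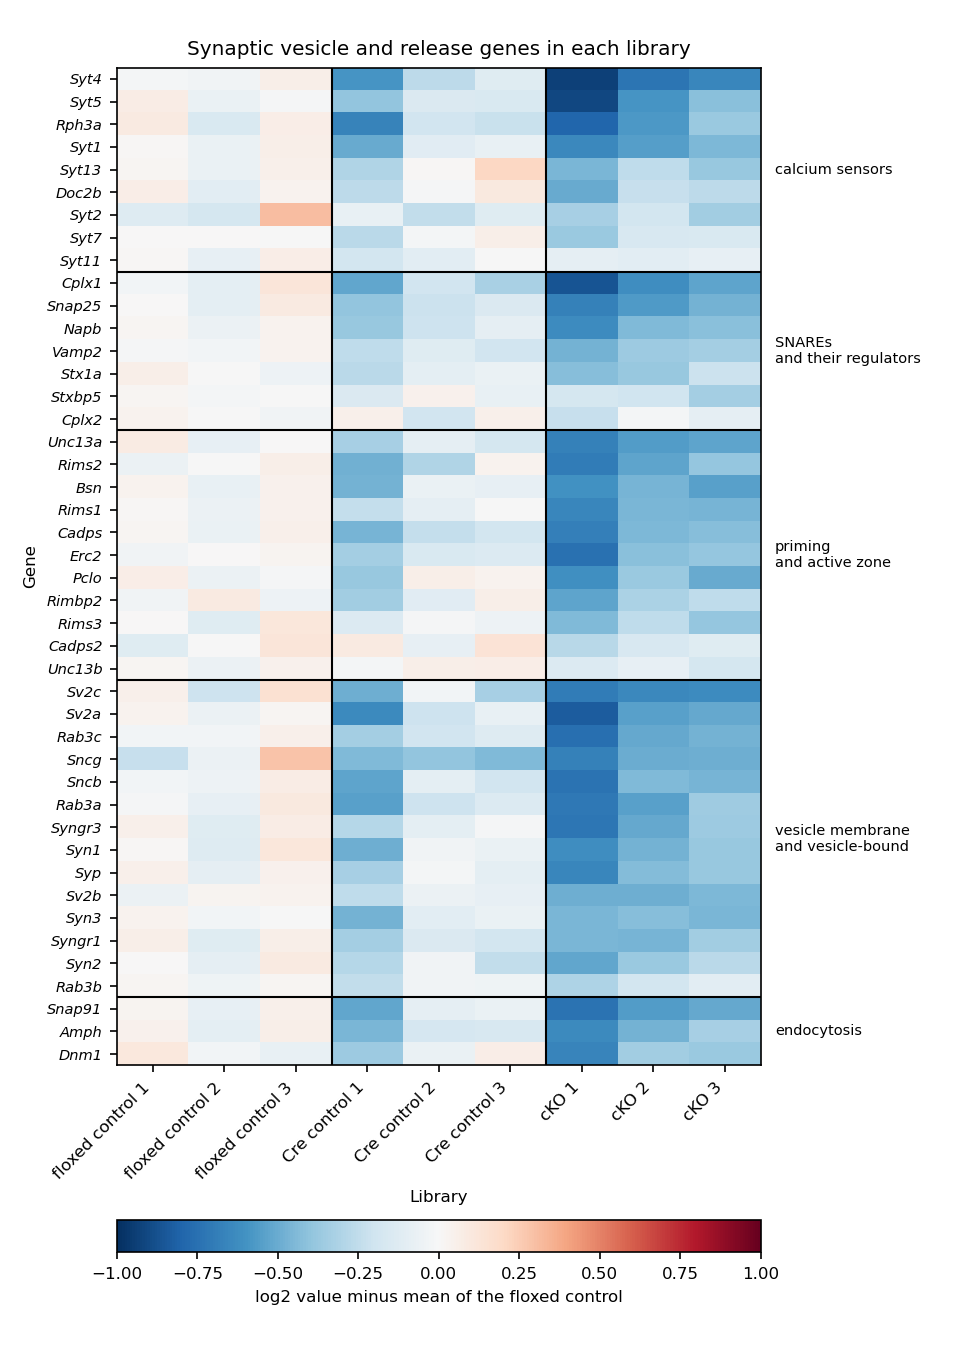
Heat map of the 44 synaptic vesicle and release genes (rows, grouped by role) in the 9 libraries (columns), where color gives the log2 value minus the mean of the 3 floxed controls. All 3 cKO columns are blue for nearly every gene, cKO 1 most deeply, and Cre control 1 is bluer than the other Cre controls.

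The Cre control gave smaller estimates. Against it the median log2 fold change of the 44 genes was -0.28, or 82.3% of the Cre control, with 0.012 for all genes tested. Of the 44, 12 fell past the adjusted p of 0.05 and 0 rose, where 4.85% of all tested genes fell and 4.86% rose. These were Syt4, Unc13a, Unc13b, Rab3c, Snap25, Syngr3, Rims1, Rims3, Pclo, Syp, Sv2b and Vamp2, and all 12 were among the 38 that fell against the floxed control. None was a DEG, beside 0.228% of all tested genes, and 36 of the 44 were lower at an unadjusted p under 0.05, as were 13.9% of all tested genes. Without Cre control 1, the library with the lowest values, 37 of the 44 fell, where 12.5% of all tested genes fell. Without Cre control 2, Cre control 3, cKO 1 or cKO 2 the number was 3, 0, 0 and 5. All 12 calls against the Cre control were thus lost without Cre control 3 and without cKO 1. No share of all tested genes was at hand for these 4 fits, so the loss cannot be read as particular to the release genes. The 2 sets of fold changes share the cKO libraries.

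In 20 of the 44 genes the 3 cKO values lay below all 6 control values, as they did in 11.5% of all tested genes. When Cre control 1 was left out, 41 of the 44 lay below the other 5 controls, as did 20.9% of all tested genes. The order of the group means was floxed control, then Cre control, then cKO in 41 of the 44, against 30.6% of all genes tested. Cadps2 and Unc13b had their highest mean in the Cre control, and Syt11 had its lowest mean in the Cre control. Between the 2 controls, which differ in the driver and in 1 floxed allele, 0 of the 44 passed the test in either direction, where 0.00713% of all tested genes fell and 0.0499% rose. At an unadjusted p under 0.05, 20 of the 44 were lower and 0 were higher in the Cre control, where 8.7% and 8.77% of all tested genes were, with a median log2 fold change of -0.20 (87.2% of the floxed control). In 21 of the 44 every Cre control library lay below every floxed control library, as in 12.1% of all tested genes. Without Cre control 1 the median was -0.090, 7 of the 44 were lower at an unadjusted p under 0.05, beside 5.85% of all tested genes, and 21 of the 44 did not overlap, beside 16.9% of all tested genes.

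**Figure D2:**
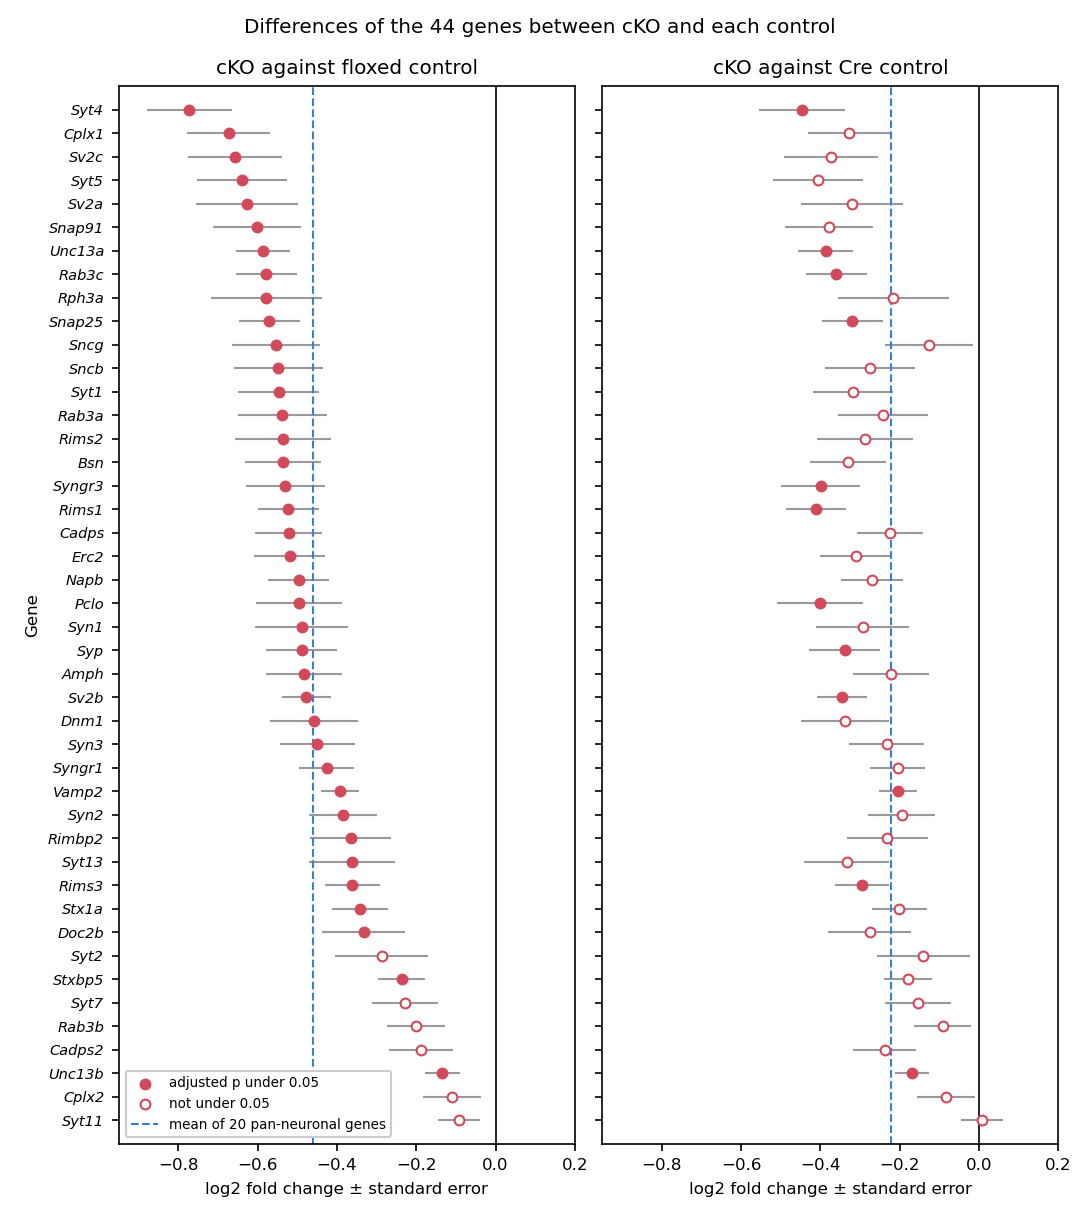
Log2 fold change with its standard error for each of the 44 genes in cKO, set against the floxed control (left) or the Cre control (right), with filled points for an adjusted p under 0.05 and a dashed line at the mean of 20 pan-neuronal genes. The points run from -0.77 for Syt4 to -0.092 for Syt11 on the left and lie closer to 0 on the right, where 12 are filled, and 26 of the 44 on the left lie below the dashed line.

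Start regions were read for the genes whose windows hold recognition letters of REST, a repressor that keeps neuronal genes silent outside neurons, or of CREB, an activator driven by neuronal activity. RefSeq windows on GRCm38.p6, from 250 bases before to 50 bases after an annotated start, were at hand for 35 of the 45 genes (44 windows). They were searched on both strands for the left arm of the REST element, TTCAGCACC, its right arm, GGACAGCGC, and the CREB element, TGACGTCA, none of which overlap each other. Of all 32851 windows, 0.371% held the left arm, 0.405% the right arm and 1.79% the CREB element. Of the 14137 windows of tested genes, 0.453%, 0.686% and 2.94% did. Among the 44 windows, with no mismatch allowed, only those of Syn1 and Unc13a held any of them. They are shown since both genes fell in cKO against the floxed control, and they were chosen for these matches. By the GENCODE annotation of GRCm38, Syn1 lies on chromosome X from 20860511 to 20921004 and Unc13a on chromosome 8 from 71624417 to 71671757. The Syn1 window, at chrX:20920869-20921168 on the minus strand, holds the left REST arm from base 19 to 27 and the CREB element from base 92 to 99. The Unc13a window, at chr8:71671708-71672007 on the minus strand, holds both REST arms on the opposite strand. The left is at bases 273 to 281 and the right at 256 to 264, with 8 bases between them. The search set no distance between the arms and missed inexact arms. The Unc13a window is therefore not read as holding a complete REST element, nor the Syn1 window as lacking a right arm. Capitals mark the matches, and the sequences run from 5′ to 3′.
Syn1: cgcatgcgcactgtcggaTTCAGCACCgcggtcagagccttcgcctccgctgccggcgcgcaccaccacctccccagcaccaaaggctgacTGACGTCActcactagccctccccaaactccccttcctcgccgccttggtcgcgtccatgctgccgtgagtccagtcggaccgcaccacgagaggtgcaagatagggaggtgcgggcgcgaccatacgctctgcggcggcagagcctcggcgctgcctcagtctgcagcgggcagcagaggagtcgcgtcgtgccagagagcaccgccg
Unc13a: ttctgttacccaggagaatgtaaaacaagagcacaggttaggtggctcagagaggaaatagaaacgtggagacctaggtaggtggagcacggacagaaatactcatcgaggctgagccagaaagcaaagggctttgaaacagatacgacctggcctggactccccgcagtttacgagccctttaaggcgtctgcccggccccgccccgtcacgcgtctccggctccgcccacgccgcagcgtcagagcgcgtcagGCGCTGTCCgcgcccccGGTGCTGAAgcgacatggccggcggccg
A match of letters describes the window and not the binding of a factor, which was not measured here.

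Among the calcium sensors and their relatives, 6 of 9 genes fell in cKO against the floxed control, where 18.8% of all tested genes did. Against the Cre control 1 of the 9 fell, where 4.85% of all tested genes did. The median log2 fold changes were -0.36 and -0.28. Syt4, a synaptotagmin found on secretory vesicles and regulated by neuronal activity, had values of 12.18, 12.17 and 12.26 in the floxed control, 11.62, 11.95 and 12.08 in the Cre control and 11.27, 11.48 and 11.55 in cKO. All 3 cKO values lay below all 6 control values, and Cre control 1 was the closest of the controls. Its log2 fold change was -0.77 ± 0.11 (SE), or 58.6% of the floxed control (adjusted p = 0.00093), and -0.45 ± 0.11 (SE), or 73.3% of the Cre control (adjusted p = 0.0343). For Syt5, a vesicle synaptotagmin, the libraries gave 9.94, 9.79 and 9.85 in the floxed control, 9.47, 9.71 and 9.70 in the Cre control and 8.95, 9.27 and 9.44 in cKO. The groups did not overlap, though cKO 3 and Cre control 1 nearly met. The log2 fold change was -0.64 ± 0.11 (SE), or 64.2% of the floxed control (adjusted p = 0.00246), and -0.41 ± 0.11 (SE, adjusted p = 0.051) against the Cre control. Syt1, the sensor of fast synchronous release, stood at 11.38, 11.30 and 11.43 in the floxed control, 10.87, 11.26 and 11.30 in the Cre control and 10.73, 10.82 and 10.92 in cKO. Every cKO library was below every floxed control, but cKO 3 was above Cre control 1. Syt1 fell, with a log2 fold change of -0.55 ± 0.10 (SE), or 68.4% of the floxed control (adjusted p = 0.00289), and one of -0.32 ± 0.10 (SE, adjusted p = 0.0743) against the Cre control. Rph3a, which binds both Rab3 and calcium, Syt13, an atypical synaptotagmin without calcium-binding residues, and Doc2b, a high-affinity sensor of spontaneous release, also fell against the floxed control, with log2 fold changes of -0.58, -0.36 and -0.33. Syt13 and Doc2b no longer passed when either floxed control 1, floxed control 3 or cKO 1 was left out, nor did Syt13 without cKO 3.

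The other 3 genes of the group of calcium sensors and their relatives did not pass against either control. Syt2, the fast sensor of many hindbrain and spinal synapses, had values of 7.47, 7.43 and 7.92 in the floxed control, 7.54, 7.36 and 7.48 in the Cre control and 7.28, 7.42 and 7.26 in cKO. Floxed control 3 stood above all other libraries, and the cKO values overlapped those of the Cre control. The log2 fold changes were -0.29 ± 0.12 (SE, adjusted p = 0.0776) against the floxed control and -0.14 ± 0.12 (SE, adjusted p = 0.453) against the Cre control. Syt7, a slow sensor of asynchronous release, gave 11.14, 11.14 and 11.13 in the floxed control, 10.87, 11.12 and 11.20 in the Cre control and 10.77, 10.97 and 10.98 in cKO. The floxed controls were nearly identical and above every cKO library, while Cre control 1 was below cKO 2 and cKO 3. Its values were -0.23 ± 0.083 (SE, adjusted p = 0.0513) against the floxed control and -0.15 ± 0.083 (SE, adjusted p = 0.242) against the Cre control. Syt11, a relative of Syt4 that does not bind calcium and is also made by cells other than neurons, showed 13.06, 12.97 and 13.12 in the floxed control, 12.87, 12.95 and 13.05 in the Cre control and 12.96, 12.95 and 12.97 in cKO. All 3 cKO libraries lay within the range of the Cre controls. Its log2 fold changes were -0.092 ± 0.053 (SE, adjusted p = 0.193) against the floxed control and 0.0075 ± 0.053 (SE, adjusted p = 0.94) against the Cre control.

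Of the SNAREs and their regulators, 6 of 7 genes fell against the floxed control, beside 18.8% of all tested genes. Against the Cre control 2 fell, beside 4.85% of all tested genes. The median log2 fold changes were -0.39 and -0.20. Snap25, a plasma membrane SNARE made by neurons and endocrine cells, had values of 10.80, 10.70 and 10.89 in the floxed control, 10.40, 10.59 and 10.65 in the Cre control and 10.12, 10.23 and 10.32 in cKO. The 3 groups were ordered with no overlap between cKO and the controls. The log2 fold change was -0.57 ± 0.077 (SE), or 67.3% of the floxed control (adjusted p = 0.0008), and -0.32 ± 0.077 (SE), or 80.1% of the Cre control (adjusted p = 0.0337). Vamp2, the main vesicle SNARE of central synapses, stood at 11.83, 11.81 and 11.88 in the floxed control, 11.59, 11.72 and 11.65 in the Cre control and 11.37, 11.48 and 11.50 in cKO. Its spread within each group was narrow and cKO lay below all controls. It fell, with a log2 fold change of -0.39 ± 0.048 (SE), or 76.2% of the floxed control (adjusted p = 0.00058), and -0.20 ± 0.048 (SE), or 86.8% of the Cre control (adjusted p = 0.0312). For Stx1a, the syntaxin of the fusion complex, the libraries gave 10.02, 9.96 and 9.92 in the floxed control, 9.70, 9.88 and 9.91 in the Cre control and 9.54, 9.59 and 9.75 in cKO. Every cKO library was below the floxed controls, and cKO 3 was above Cre control 1. Its log2 fold change was -0.34 ± 0.070 (SE), or 78.9% of the floxed control (adjusted p = 0.00448), and -0.20 ± 0.070 (SE, adjusted p = 0.093) against the Cre control.

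Cplx1, a complexin that clamps and then promotes fusion, changed most in this group, with values of 9.26, 9.19 and 9.40 in the floxed control, 8.76, 9.09 and 8.96 in the Cre control and 8.42, 8.66 and 8.75 in cKO. Every cKO value was below every control value, with cKO 3 and Cre control 1 nearly equal. The log2 fold change was -0.67 ± 0.10 (SE), or 62.7% of the floxed control (adjusted p = 0.00139), and -0.33 ± 0.10 (SE, adjusted p = 0.0748) against the Cre control. Its relative Cplx2 had values of 12.70, 12.66 and 12.63 in the floxed control, 12.72, 12.47 and 12.72 in the Cre control and 12.43, 12.65 and 12.57 in cKO. The groups overlapped, and cKO 2 lay within the range of the floxed controls. Its log2 fold changes were -0.11 ± 0.073 (SE, adjusted p = 0.253) against the floxed control and -0.083 ± 0.073 (SE, adjusted p = 0.477) against the Cre control. Stxbp5, or tomosyn, which inhibits SNARE assembly, stood at 9.99, 9.95 and 9.97 in the floxed control, 9.83, 10.02 and 9.89 in the Cre control and 9.80, 9.77 and 9.63 in cKO. The cKO values lay below all controls, by a small margin from cKO 1 to Cre control 1. It fell, with a log2 fold change of -0.24 ± 0.060 (SE), or 84.8% of the floxed control (adjusted p = 0.0119), and one of -0.18 ± 0.060 (SE, adjusted p = 0.0846) against the Cre control. Napb, the neuronal SNAP cofactor that helps take SNARE complexes apart, fell against the floxed control (-0.50).

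Of the priming and active zone genes, 10 of 11 fell against the floxed control, beside 18.8% of all tested genes. Against the Cre control 5 fell, beside 4.85% of all tested genes. The median log2 fold changes were -0.52 and -0.29. Unc13a, or Munc13-1, which primes vesicles by opening syntaxin, had values of 10.94, 10.77 and 10.85 in the floxed control, 10.52, 10.76 and 10.68 in the Cre control and 10.18, 10.29 and 10.33 in cKO. The groups did not overlap, with 10.33 as the highest cKO value and 10.52 as the lowest control value. It fell, with a log2 fold change of -0.59 ± 0.068 (SE), or 66.6% of the floxed control (adjusted p = 0.000512), and -0.39 ± 0.068 (SE), or 76.5% of the Cre control (adjusted p = 0.0137). Rims1, Rims2 and Rims3, scaffolds of the active zone, fell against the floxed control, with log2 fold changes of -0.52, -0.54 and -0.36, and Rims1 and Rims3 also fell against the Cre control. Bsn and Pclo, large scaffolds of the active zone, had log2 fold changes of -0.54 and -0.50 against the floxed control and both passed. So did Erc2, which binds RIM proteins, at -0.52, Cadps, which primes dense-core vesicles, at -0.52, and Rimbp2, which links RIM proteins to calcium channels, at -0.37. Rimbp2 did not pass without floxed control 2 or without cKO 1.

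Unc13b, or Munc13-2, had a small decrease past the test against each control, with log2 fold changes of -0.13 ± 0.043 (SE), or 91.1% of the floxed control (adjusted p = 0.034), and -0.17 ± 0.043 (SE), or 88.9% of the Cre control (adjusted p = 0.0399). It did not pass against the floxed control without any one of floxed control 1, floxed control 3, cKO 1 and cKO 3, nor against the Cre control without Cre control 2, Cre control 3 or any one of the cKO libraries. Cadps2, the relative of Cadps, was the only gene of this group that did not pass against the floxed control, with values of 8.27, 8.39 and 8.51 in the floxed control, 8.48, 8.31 and 8.53 in the Cre control and 8.11, 8.23 and 8.27 in cKO. The cKO values were below all controls, but cKO 3 and floxed control 1 rounded to the same value. Its log2 fold changes were -0.19 ± 0.080 (SE, adjusted p = 0.0887) against the floxed control and -0.24 ± 0.080 (SE, adjusted p = 0.0859) against the Cre control.

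Of the genes for vesicle membrane and vesicle-bound proteins, 13 of 14 fell against the floxed control, beside 18.8% of all tested genes. Against the Cre control 4 fell, beside 4.85% of all tested genes. The median log2 fold changes were -0.51 and -0.28. Sv2c, a vesicle glycoprotein of the SV2 family with a restricted pattern in the brain, had values of 8.22, 7.96 and 8.32 in the floxed control, 7.68, 8.14 and 7.83 in the Cre control and 7.46, 7.52 and 7.54 in cKO. The cKO libraries lay close together and below every control. It fell, with a log2 fold change of -0.66 ± 0.12 (SE), or 63.4% of the floxed control (adjusted p = 0.00258), and one of -0.37 ± 0.12 (SE, adjusted p = 0.0726) against the Cre control. Sv2a, the broadly expressed neuronal member of the family, stood at 11.59, 11.50 and 11.58 in the floxed control, 10.92, 11.35 and 11.48 in the Cre control and 10.73, 11.01 and 11.04 in cKO. Cre control 1 was below cKO 2 and cKO 3, and the other controls were above all cKO libraries. The log2 fold change was -0.63 ± 0.13 (SE), or 64.7% of the floxed control (adjusted p = 0.00458), and -0.32 ± 0.13 (SE, adjusted p = 0.132) against the Cre control. Sv2b, the third member, fell against both controls, with log2 fold changes of -0.48 and -0.35.

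Syp, or synaptophysin, a major protein of the vesicle membrane, had values of 11.55, 11.41 and 11.54 in the floxed control, 11.17, 11.48 and 11.41 in the Cre control and 10.85, 11.07 and 11.12 in cKO. The cKO values were below all 6 controls, with cKO 3 near Cre control 1. It fell, with a log2 fold change of -0.49 ± 0.089 (SE), or 71.3% of the floxed control (adjusted p = 0.00274), and -0.34 ± 0.089 (SE), or 79.1% of the Cre control (adjusted p = 0.0433). Syn1, a synapsin that tethers vesicles to one another, stood at 10.17, 10.03 and 10.27 in the floxed control, 9.67, 10.13 and 10.09 in the Cre control and 9.54, 9.69 and 9.78 in cKO. Cre control 1 was below cKO 2 and cKO 3, so cKO and the Cre control overlapped. Its log2 fold change was -0.49 ± 0.12 (SE), or 71.3% of the floxed control (adjusted p = 0.00919), and -0.29 ± 0.12 (SE, adjusted p = 0.13) against the Cre control. Rab3b, a small GTPase of the Rab3 family that marks secretory vesicles, was the gene of this group that did not pass, with values of 8.63, 8.57 and 8.62 in the floxed control, 8.36, 8.57 and 8.56 in the Cre control and 8.30, 8.42 and 8.50 in cKO. All cKO libraries were below the floxed controls, but Cre control 1 was below cKO 2 and cKO 3. Its log2 fold changes were -0.20 ± 0.073 (SE, adjusted p = 0.0522) against the floxed control and -0.092 ± 0.073 (SE, adjusted p = 0.427) against the Cre control.

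The other vesicle genes fell against the floxed control as well. The log2 fold changes were -0.58 for Rab3c and -0.54 for Rab3a, and Rab3c also fell against the Cre control (-0.36). They were -0.39 and -0.45 for the synapsins Syn2 and Syn3, and -0.43 and -0.53 for the synaptogyrins Syngr1 and Syngr3, vesicle membrane proteins related to synaptophysin. Syngr3 also fell against the Cre control (-0.40). The synucleins Sncb and Sncg, small proteins of the nerve terminal, both had -0.55. For Sncg the Cre control was also below the floxed control in every library, with a log2 fold change of -0.43 that did not pass (adjusted p = 0.155, limma with Benjamini-Hochberg adjustment), and its cKO values were close to those of the Cre control.

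All 3 genes of endocytosis fell against the floxed control, beside 18.8% of all tested genes. None passed against the Cre control, where 4.85% of all tested genes fell. At an unadjusted p under 0.05 all 3 were lower than the Cre control, as were 13.9% of all tested genes. Snap91, or AP180, which assembles clathrin coats on vesicle membrane, had values of 11.40, 11.30 and 11.43 in the floxed control, 10.85, 11.29 and 11.31 in the Cre control and 10.64, 10.82 and 10.87 in cKO. Only cKO 3 was above Cre control 1, and the other controls were above every cKO library. Snap91 fell, with a log2 fold change of -0.60 ± 0.11 (SE), or 65.9% of the floxed control (adjusted p = 0.00281), and one of -0.38 ± 0.11 (SE, adjusted p = 0.0586) against the Cre control. Dnm1, the neuronal dynamin that cuts vesicles from the membrane, stood at -0.46 in log2 fold change and Amph, amphiphysin, which recruits dynamin, at -0.48, both against the floxed control.

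The median of the 44 genes was close to the mean of general neuronal markers. All 20 genes of a pan-neuronal list, such as Nsg1, Stmn3 and Gap43, fell against the floxed control, as did 6 against the Cre control, with mean log2 fold changes of -0.46 and -0.22. Per library, the median deviation of the 44 release genes from their own means was 0.25, 0.16 and 0.28 in the floxed control, -0.14, 0.11 and 0.12 in the Cre control and -0.39, -0.21 and -0.16 in cKO. For the pan-neuronal genes it was 0.22, 0.18 and 0.26, then -0.18, 0.062 and 0.11, then -0.33, -0.19 and -0.13, so both lists put Cre control 1 below the other Cre controls and cKO 1 lowest. The median of the neural progenitor markers moved the other way, though not every marker did. It was -0.11, -0.14 and -0.15 in the floxed control, -0.059, -0.12 and 0.016 in the Cre control and 0.23, 0.13 and 0.10 in cKO. Of these 14 genes 10 rose against the floxed control, as did 5 against the Cre control, with Nes (0.50), Ccnb1 (0.53) and Vim (0.31) having the smallest p.

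**Figure D3:**
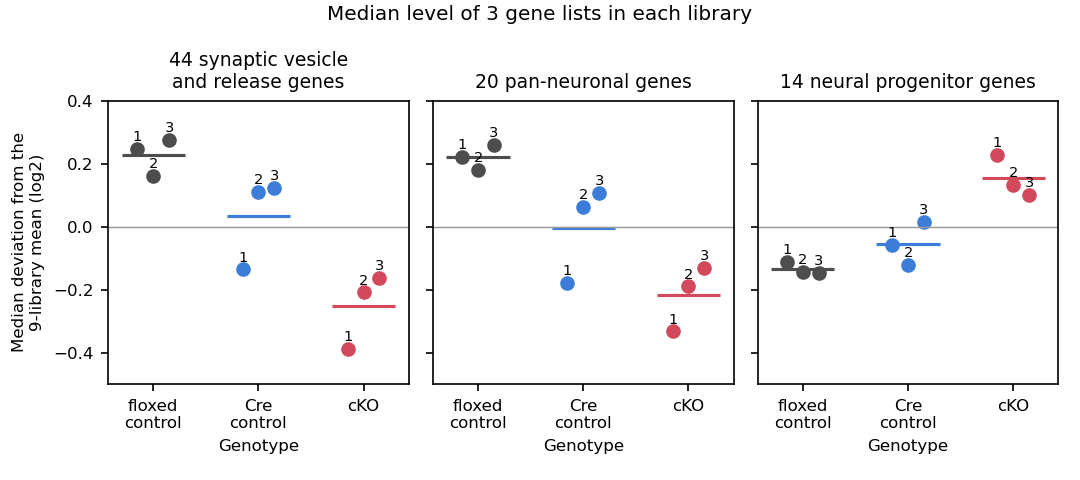
Median log2 deviation from the 9-library mean for 44 synaptic vesicle and release genes, 20 pan-neuronal genes and 14 neural progenitor genes, with a numbered point per library and a line at the mean of each genotype. Release and pan-neuronal genes take nearly the same values, lowest in cKO 1 (-0.39 and -0.33), and progenitor genes are highest there (0.23).

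When each library was centred on its own mean over the pan-neuronal genes, the median log2 fold change of the 44 release genes was -0.033 against the floxed control, with -0.061 against the Cre control. On this scale 2 of the 44 were lower than the floxed control past an adjusted p of 0.05, where 0.813% of all tested genes were, and 6 were higher, where 86% were. Against the Cre control 1 was lower and 1 higher, where 0.599% and 33.3% of all tested genes were. Syt4 was lower relative to neuronal genes in both, with log2 fold changes of -0.31 (adjusted p = 0.00164) and -0.23 (adjusted p = 0.0395) from limma with Benjamini-Hochberg adjustment. Cplx1 was lower against the floxed control alone, at -0.21 (adjusted p = 0.0415), and did not pass when 7 genes of the pan-neuronal list (Nsg1, Nsg2, Gng3, Celf4, Uchl1, Chga and Scg3) were left out. The 6 that were higher relative to neuronal genes against the floxed control were Syt11 (0.37), Cplx2 (0.35), Unc13b (0.33), Cadps2 (0.27), Rab3b (0.26) and Syt7 (0.23), and Syt11 was also the 1 that was higher against the Cre control. The number of genes that were lower was between 1 and 3 against the floxed control and between 0 and 4 against the Cre control when each library was left out in turn. It was 1 without any one of the floxed controls, cKO 1 or cKO 2. Against the Cre control it was 4 without Cre control 1 and 0 without Cre control 2, Cre control 3, cKO 1 or cKO 2. Shares of all tested genes were not at hand for these fits.

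Release genes with a broadly expressed relative were also compared with that relative within each library, since the ratio of the pair does not depend on how the library was scaled. In all 10 such pairs the ratio was lower in every cKO library than in every floxed control, and in 7 it was also lower than in every Cre control. The exceptions against the Cre control were Snap25/Snap23, Stx1a/Stx4a and Erc2/Erc1. Each of the 10 release genes was by itself lower in every cKO library than in every floxed control, so the count of 10 pairs in part restates that result. No share of such ratios over all genes was at hand. The log2 ratio of Snap25 to Snap23, its relative in other cells, was between 0.83 and 0.97 in the floxed control, between 0.23 and 0.64 in the Cre control and between -0.13 and 0.27 in cKO. That of Vamp2 to Vamp3 was between 0.88 and 1.07, between 0.49 and 0.72, and between 0.099 and 0.29. These 2 ratios changed most along with Syngr1/Syngr2, with differences of -0.88, -0.78 and -0.76 against the floxed control. The change was -0.57 for both Stx1a/Stx4a and Syp/Sypl, -0.54 for Snap91/Picalm, -0.53 for Napb/Napa, -0.48 for Dnm1/Dnm2, -0.41 for Amph/Bin1 and -0.25 for Erc2/Erc1. No test was run on these ratios.

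**Figure D4:**
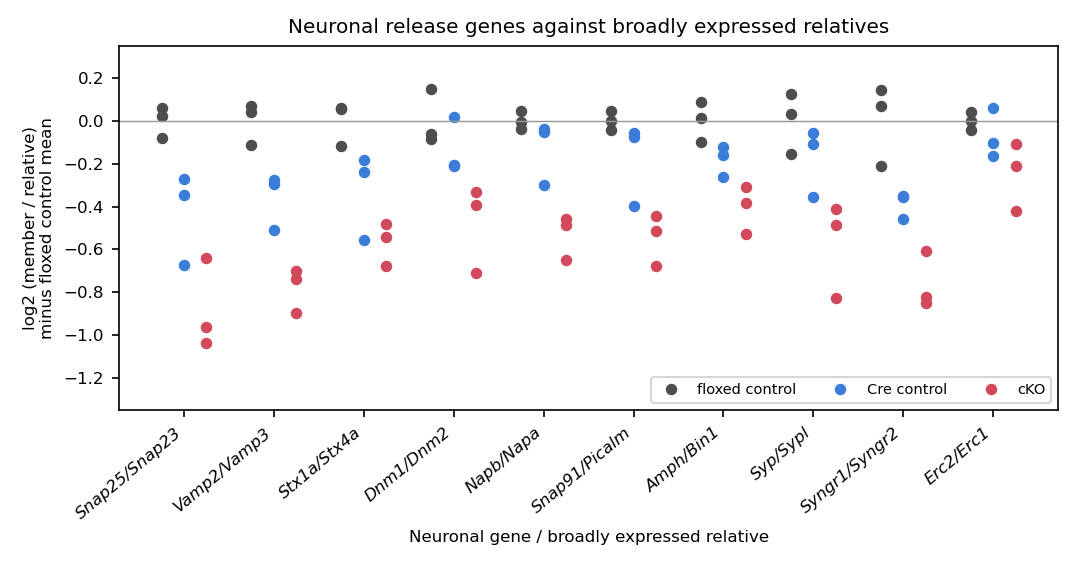
Log2 ratio of each neuronal gene to its broadly expressed relative, minus the floxed control mean, with a point per library for 10 pairs. In every pair the 3 cKO points lie below the 3 floxed control points, and most Cre control points lie between them or overlap with one of the groups.

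The relatives themselves did not fall together. Of the 10, 4 rose against the floxed control, namely Vamp3 (0.39), Syngr2 (0.33), Snap23 (0.31) and Stx4a (0.22), and Erc1 fell (-0.27). The other 5 had values of 0.086 for Sypl, -0.077 for Bin1, -0.059 for Picalm, 0.034 for Napa and 0.020 for Dnm2 and did not pass. The median of the 10 was 0.060, against -0.49 for the 44 release genes.

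Genes of the same pathway outside the 44 were lower to differing degrees in cKO against the floxed control. The genes named have the smallest p of each list, and their log2 fold changes stand in parentheses. Of all tested genes, 18.8% fell and 19.5% rose against the floxed control, and 4.85% fell and 4.86% rose against the Cre control. Of 7 other synaptotagmins 6 fell, led by Syt16 (-0.56), Syt3 (-0.52) and Syt9 (-0.49), and 4 fell against the Cre control. Of 20 other release genes 10 fell, led by Ppfia2 (-0.65), a liprin of the active zone, and Rims4 (-0.66), and 4 fell against the Cre control. Among 6 vesicular transmitter transporters 4 fell, including Slc17a6 (-0.68), the glutamate transporter of most midbrain excitatory neurons, Slc17a8 (-0.32) and Slc18a3 (-0.23). Slc17a6 was the 1 that also fell against the Cre control (-0.47). Slc18a3 stood at the filter limit, and its decrease is not read further. Its cKO values of 4.58, 4.58 and 4.61 lay below 4.73, the lowest value at 1 cpm. It therefore passed the filter only through control libraries. Subunits of the vacuolar proton pump, which acidifies vesicles in neurons and lysosomes in all cells, changed less, with a median of -0.16. Of these 16 genes 8 fell, led by Atp6v0a1 (-0.36), Atp6v1h (-0.26) and Atp6ap2 (-0.20), and 1 fell against the Cre control. Of 19 genes of vesicle retrieval, many of them used for clathrin traffic in every cell, 8 fell and 2 rose, with a median of -0.098. Those that fell were led by Sh3gl2 (-0.62), Dnajc6 (-0.66) and Sh3gl3 (-0.47), and 2 fell and 1 rose against the Cre control.

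Markers of other cells that the dissection could hold were also compared. The summed linear level, 2 to the power of each value, of the 20 pan-neuronal genes was between 255000 and 275800 in the floxed control, 199200 and 245000 in the Cre control and 173600 and 202500 in cKO. For the 14 progenitor genes it was between 108400 and 113600, 111200 and 119400, and 126300 and 136100. The 9 mesenchyme markers gave 30250 to 54940, 38470 to 63680 and 64880 to 67480, and 8 of them rose against the floxed control, as did 0 against the Cre control, with Lum, Dcn and Col3a1 having the smallest p. The 8 erythroid markers gave 151700 to 257700, 182500 to 210000 and 236700 to 458000, of which 6 rose against the floxed control, led by Hba-x, Hbb-y and Hba-a1, and 3 against the Cre control. Of 8 endothelial markers, with summed levels of 6470 to 8231, 7020 to 8886 and 8425 to 9036, 4 rose against the floxed control, led by Flt1, Tie1 and Pecam1, and 0 against the Cre control. Of 9 tested markers of sensory and motor neurons, 6 fell against the floxed control, led by Ntrk2, Pou4f1 and Avil, and 2 against the Cre control. The sums over all 10 listed genes of this kind were 7166 to 7362, 6257 to 7001 and 5009 to 5465. None of 8 microglia markers passed in either comparison, with Tyrobp, C1qb and C1qa closest to it and sums of 2567 to 3027, 2897 to 3025 and 2954 to 3240. Of 4 tested markers of neural crest glia 1 rose against the floxed control, Erbb3, while Sox10 did not pass. The sums over all 6 listed genes of this kind were 650.8 to 745.7, 655.8 to 681.2 and 702.7 to 720.7. None of these lists had a marker at or below 0 in every library. On this scale 1 cpm stood at 4.73 to 4.78, so a value above 0 does not by itself show detection. The part of these cells in the lower values of the release genes was not tested. The 4 Y-linked genes had sums of 918.3 to 4194, 1075 to 4202 and 2501 to 4012, and none passed. With their mean as a covariate, 41 of the 44 release genes fell against the floxed control, as did 30 against the Cre control. No share of all tested genes was at hand for this fit, so the higher counts cannot be read as particular to the release genes.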

How the data were processed

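Poly-A selected RNA from midbrain tissue was sequenced, and the authors deposited 1 table of log2 values that had been normalized between libraries. The median SD within a genotype was 0.0175 for genes with a mean value between 0 and 2 and 0.0921 for those between 6 and 8, so fold changes of weakly expressed genes may be compressed. The submitters' processing notes name FastQC 0.10.1, kallisto 0.46.1, DESeq2 and the build mm10, and the transformation is not given in the sources used here. The table holds no read counts, so the depth of the libraries is unknown. A row was kept if it had a gene name and reached 1 cpm, computed from 2 to the power of its value, in 3 or more of the 9 libraries. Where a symbol repeated, the row with the highest mean was used: Rims1 had 2 equal rows, and a row of Rab3a between 3.61 and 4.05 was dropped. In R 4.3.3, limma 3.58.1 estimated 1 mean for each genotype from the 9 libraries together (lmFit, contrasts.fit, eBayes with a trend). Its moderated test was two-sided, and p-values were adjusted by Benjamini-Hochberg over 14029 genes. The fit was tested on simulated data. Fetuses were the replicates, and each p-value sets a difference of genotype means against the spread within genotypes over these 9 samples. The genes and gene lists were chosen with earlier results of these data known, and no list was tested as a set. Per-library values are given for genes that are DEGs, for the fusion core (Syt1, Snap25, Stx1a, Vamp2, Stxbp5, Syp, Syn1) and for genes that did not pass against the floxed control. Of each other list the 3 genes with the smallest p are named, except for 2 genes that are not reported here. Alternatives were other filters, no trend, the 6 libraries compared alone, other centring and normalization, a replicate block, a Y-linked covariate, limma's treat, and each library left out in turn. Leaving 7 genes out of the pan-neuronal list, and each library out of that fit, was chosen after seeing the data.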

Additional observations from a re-analysis of the deposited data

How the results depend on the processing

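The 38 genes lower in cKO against the floxed control were 34 to 38 when each library was left out in turn, 2 after centring on the pan-neuronal mean and 2 when limma's treat required a change of over 1.2-fold. The 12 against the Cre control were 3 with no filter on low values, 4 with only the 6 libraries compared, 1 after pan-neuronal centring, 30 with the Y-linked covariate, 0 with treat, 36 at an unadjusted p under 0.05 and 0 to 37 with each library left out. The 7 DEGs against the floxed control were 0 after pan-neuronal centring, 14 with the Y-linked covariate and 2 to 16 with each library left out. For the alternatives of this paragraph, the Y-linked covariate among them, no share of all tested genes was at hand except where given above. The 20 genes with cKO below all controls were 20 to 41 with each library left out. The 2 genes lower relative to pan-neuronal genes against the floxed control were 1 when 7 genes of that list were left out and 1 to 3 with each library left out, and the 1 against the Cre control was 0 to 4. Under pan-neuronal centring the median log2 fold changes were -0.033, -0.061 and, for the Cre control against the floxed control, 0.041, and without single libraries they were -0.54 to -0.43, -0.38 to -0.21 and -0.24 to -0.090. That centring also turned the direction of 17 genes that passed on either scale against the floxed control: Syt7 (0.23), Syt11 (0.37), Syt13 (0.097), Doc2b (0.13), Stx1a (0.12), Vamp2 (0.067), Stxbp5 (0.22), Cplx2 (0.35), Unc13b (0.33), Rims3 (0.098), Rimbp2 (0.094), Cadps2 (0.27), Syngr1 (0.033), Syn2 (0.074), Syn3 (0.010), Rab3b (0.26) and Dnm1 (0.0011). Against the Cre control it turned Vamp2 (0.017) and Unc13b (0.052). These shifts follow from its construction, since it subtracts the change of neuronal genes.

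The replicate numbers do not pair the fetuses in the labels. Once genotype means were subtracted, same-numbered libraries correlated across genes between -0.027 and 0.26 (median 0.10, n = 9) and others between -0.28 and 0.16 (median -0.053, n = 18). A fit with a replicate block gave 40 lower genes against the floxed control, with 20 against the Cre control, and no share of all tested genes was at hand for it. The causes of the other shifts were not tested. The files give no depth, so no counting error could be set beside these values.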
